A study of Homo sapiens with 6 samples.

Results

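TGFBR2, IL6ST and ERRFI1 are 3 genes that set how a cell answers growth factors and cytokines. They were examined here as 3 of the 19987 protein-coding genes of chromosomes with at least 1 peak. They were chosen by the peaks themselves: each has peaks of V5 libraries over its span in RefSeq (GRCh38) or within 10 kb of it. The number, width, rank and position of these peaks, and their agreement between libraries, are therefore a description. No test was applied to them. In all 6043 peaks of 3 lists, 56 lay at the 3 genes, of which 16, 24 and 16 came from replicates 1, 2 and 3. The cells were a clone of HepG2, an established human liver cancer line, that carries TAF2 with a V5 tag (the line HepG2-TAF2-V5, labelled HCC). TAF2 is a subunit of TFIID, the complex that recognises core promoters before RNA polymerase II is loaded. Chromatin recovered with a V5 antibody was sequenced in 3 libraries, each with its own peak list. The 3 control libraries of the same clone, called input in one label and IgG in another, have no peak list here, so no control value stands beside the numbers. All libraries, controls included, came from the tagged clone.

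Replicates 1, 2 and 3 had 1599, 2557 and 1887 peaks, with a median width of 220 to 224 bp. No read totals come with them, so the depth is unknown. The labels do not name separate cultures, and the spread between libraries may be technical. Peaks do not measure expression. As a check of the labelled cell type, 8 of 10 hepatocyte marker genes had a peak in at least 2 libraries over the span or within 10 kb, beside 5.09% of all protein-coding genes, while ALB had none and FGB had one in 1 library.

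The 3 genes act at different steps of signalling from the cell surface. TGFBR2 encodes the type II receptor for TGF-beta, a serine/threonine kinase that binds the ligand and activates the type I receptor, which then phosphorylates SMAD proteins. IL6ST encodes gp130, the signalling chain shared by the receptors for interleukin 6 and related cytokines. In hepatocytes it drives the acute phase response through JAK kinases and STAT3. ERRFI1, also called MIG6, encodes a cytoplasmic inhibitor that binds the kinase domain of the EGF receptor and is itself induced by growth factors as a brake on the pathway.

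Since TFIID binds at starts of transcription, the sequence around the outermost annotated start of each gene is given first, from RefSeq (GRCh38.p14). TGFBR2 has another annotated start 245 bp downstream, and the window of that start is not printed. Each sequence runs 5′ to 3′ along the gene, from 250 bases before the start to 30 bases into the transcript. Capitals mark TATATA, the GC box GGGCGG and the CCAAT box CCAAT, each searched on both strands (TATATA reads the same on both).
TGFBR2 (chr3:30606106-30606385, plus strand): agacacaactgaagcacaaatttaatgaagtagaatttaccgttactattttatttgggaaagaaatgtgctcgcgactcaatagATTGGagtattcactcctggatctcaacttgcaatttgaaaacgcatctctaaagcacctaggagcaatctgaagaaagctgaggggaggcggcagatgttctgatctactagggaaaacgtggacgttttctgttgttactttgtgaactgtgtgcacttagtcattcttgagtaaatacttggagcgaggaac
IL6ST (chr5:55994934-55995213, minus strand): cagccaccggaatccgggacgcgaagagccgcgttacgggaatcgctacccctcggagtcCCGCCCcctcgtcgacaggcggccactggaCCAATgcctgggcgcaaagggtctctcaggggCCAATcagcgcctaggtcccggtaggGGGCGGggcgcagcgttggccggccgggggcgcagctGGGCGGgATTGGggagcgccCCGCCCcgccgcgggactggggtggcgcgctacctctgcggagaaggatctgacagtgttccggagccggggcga
ERRFI1 (chr1:8026280-8026559, minus strand): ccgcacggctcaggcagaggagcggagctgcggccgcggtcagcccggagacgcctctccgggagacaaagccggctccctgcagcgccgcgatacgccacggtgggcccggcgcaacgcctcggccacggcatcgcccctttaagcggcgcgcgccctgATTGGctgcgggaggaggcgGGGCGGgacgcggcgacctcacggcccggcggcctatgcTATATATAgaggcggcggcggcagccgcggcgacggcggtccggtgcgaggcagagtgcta
ERRFI1 has a run of TA repeats that holds 2 overlapping TATATA matches, beginning 31 and 29 bases before the start. TATATA occurred in 3.15% of 22156 such windows of protein-coding genes. TATAAA, also searched, is in none of the 3 windows and in 9.28% of all. IL6ST has 4 GC boxes and 3 CCAAT boxes, and ERRFI1 has 1 of each. The TGFBR2 window, that of its outermost start only, holds a single CCAAT box and no GC box. Of all windows, 55.3% held a GC box and 34.0% a CCAAT box. The share of G and C was 40.7% at TGFBR2, 72.9% at IL6ST and 74.6% at ERRFI1, against a median of 62.1% over all windows. A match of letters is not evidence of a site in use.

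TGFBR2 (chromosome 3, 30606356 to 30694142, plus strand) carried the most peaks of the 3 genes. Replicate 1 had 10 peaks there, replicate 2 had 16 and replicate 3 had 8, on average 11.3 ± 4.16 (SD, n = 3). They covered 9.11, 8.82 and 8.05 kb of a 107.8 kb window, so that the bases covered varied less between libraries than the number of peaks. Replicate 2 had the most peaks and not the most bases. Of the 34 peaks, 32 had their summit inside the gene, and these all lay in its first 22.9%. The last peak ended 20070 bp from the start, and the remaining 67.7 kb of the gene had no peak in any library.

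The dominant peak of TGFBR2 lay just inside the gene in every library. It measured 4340 bp in replicate 1 (30607566 to 30611905), 3545 bp in replicate 2 (30607958 to 30611502) and 3484 bp in replicate 3 (30607958 to 30611441), and was the 8th, 9th and 9th widest of its list. The authors' fold of this peak over background was 10.3, 9.76 and 10.9. By fold it stood at percentile 98.6, 97.03 and 98.9 of its own list. Its summits lay 2539, 2549 and 2822 bp from the start, within 283 bp of each other, so the libraries placed the highest point almost together. Joining overlapping peaks of the 3 lists gave a region of 5928 bp (30607408 to 30613335) that held 9 peaks.

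Downstream of that region came a series of smaller blocks in TGFBR2. Each of 4 regions between 7147 and 11359 bp from the start had peaks of 3 libraries, with best folds between 3.87 and 7.86. After a stretch where only replicate 2 had peaks (3 of them, with folds of 5.58, 6.20 and 4.65), replicate 1 alone had a peak at 30625543 to 30625728 (fold 5.18). Just past it, a further region near 20 kb was again present in all libraries. It spanned 632 bp (30625795 to 30626426) and had folds of 6.68, 7.11 and 6.13, with summits within 166 bp. In replicate 3 its edge touched the pseudogene KLHL25P1, while the summits of all libraries lay outside the pseudogene.

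At the start of TGFBR2 itself the signal was weak. RefSeq gives 2 starts 245 bp apart. A peak lay over the first start alone in replicate 1 (30606201 to 30606593, fold 3.90, percentile 13.9) and over both starts in replicate 2 (30606341 to 30606727, fold 5.15, percentile 48.03). Replicate 3 had no peak over either. A peak-free gap of 972 and 680 bp separated this peak from the next one downstream in replicates 1 and 2. The start peaks also lie inside LOC105377015, a gene annotated on the opposite strand across the start of TGFBR2, and their signal cannot be divided between the genes. The start of LOC105377015, 568 bp from that of TGFBR2, was outside every peak.

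ERRFI1 (chromosome 1, 8011727 to 8026309, minus strand) is much shorter, at 14.6 kb, and carried a similar pattern. Replicates 1, 2 and 3 had 5, 7 and 6 peaks there, on average 6 ± 1 (SD, n = 3). The peaks covered 7.13, 7.10 and 6.61 kb, which is 20.6, 20.5 and 19.1% of its 34.6 kb window. The counts of ERRFI1 (5 to 7) lay below those of TGFBR2 (8 to 16) in every library, and so did the covered bases.

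The widest peak of ERRFI1 measured 5906 bp in replicate 1 (8019635 to 8025540), 4694 bp in replicate 2 (8020806 to 8025499) and 5184 bp in replicate 3 (8020224 to 8025407). These were the 3rd, 4th and 5th widest peaks of their lists. Their folds were 12.7, 8.47 and 11.9, at percentiles 99.4, 94.1 and 99.4. Replicate 2 was the lowest by fold and by rank. In that library an adjoining peak of 838 bp (fold 7.88) covered bases that belonged to the wide peak in replicate 1. The merged region ran from 769 to 6674 bp downstream of the start. Its summits lay 4688, 4089 and 1880 bp from the start, a spread of 2808 bp. All 3 libraries thus marked the same block of ERRFI1 but put its highest point in different places, replicate 3 nearest to the start.

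A separate narrow peak sat over the ERRFI1 start in all 3 libraries. It lay at 8026230 to 8026542 in replicate 1, 8026288 to 8026532 in replicate 2 and 8026220 to 8026595 in replicate 3. Its folds were 5.05, 3.46 and 5.55, and its percentiles 51.1, 3.19 and 65.8, so it ranged from near the bottom of its list to above the middle. Every one of these peaks also held the start of ERRFI1-DT, a long noncoding RNA transcribed in the other direction from 184 bp away. The peaks covered 263, 245 and 280 of the 280 bases printed above for ERRFI1, the TA run included. Gaps of 689, 788 and 812 bp without a peak separated this start peak from the wide block downstream. TGFBR2 in replicates 1 and 2 had gaps of the same order. Farther into ERRFI1, narrow peaks 7126 to 8947 bp from the start formed 2 regions with all libraries, with folds of 4.61 to 5.52. The final 4.3 kb of the gene had no peak.

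IL6ST (chromosome 5, 55935095 to 55994963, minus strand) differed from both. Replicates 1, 2 and 3 had 1, 1 and 2 peaks there, on average 1.33 ± 0.577 (SD, n = 3), which covered 0.23, 0.28 and 0.48 kb. None of these 4 peaks touched the 59.9 kb span of the gene. On the start side, replicate 1 had a peak at 55995004 to 55995233 (fold 3.85, percentile 12.7) and replicate 3 one at 55994978 to 55995267 (fold 5.89, percentile 73.6). The 2 summits lay 270 and 248 bp before the start of IL6ST, 22 bp apart. Replicate 2 had no peak there. These peaks stopped just short of the IL6ST start and held the start of IL6ST-DT, a divergent long noncoding RNA that begins 204 bp away. They covered 210 and 236 of the 280 bases printed above for IL6ST.

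Beyond the 3′ end of IL6ST, replicate 2 had a peak at 55934354 to 55934628 (fold 3.77, percentile 6.79) and replicate 3 one at 55934239 to 55934423 (fold 3.47, percentile 4.90). They overlapped by 70 bp, lay over no annotated gene and were among the weakest peaks of their lists. Their -log10 q of 1.66 and 1.71 lay close to the lowest value in any list, 1.31. No region at IL6ST was thus shared by all 3 libraries, although each library had a peak in the window.

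**Figure D1:**
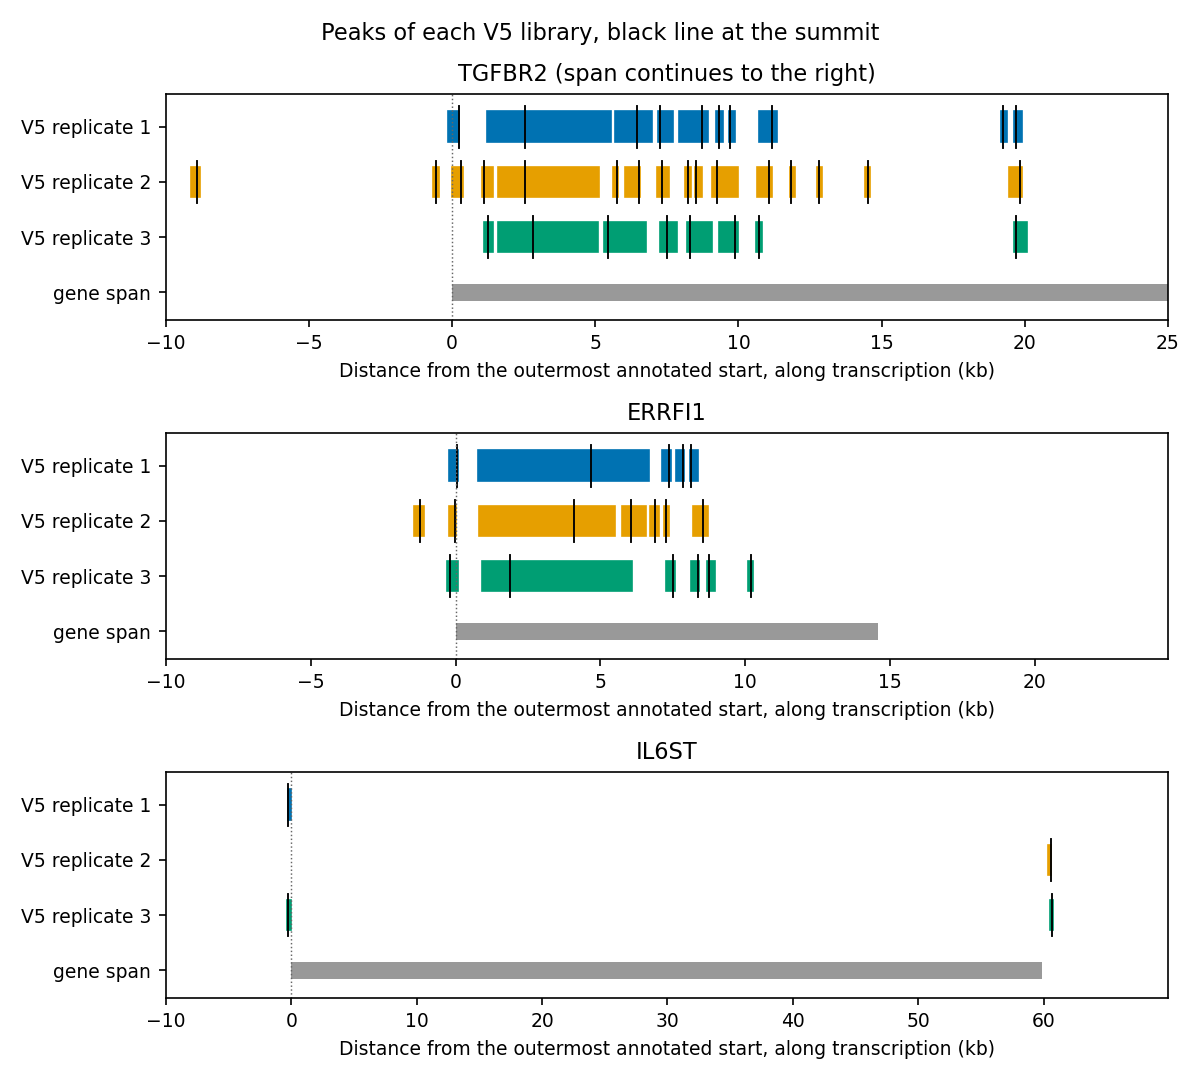
Peaks at TGFBR2, ERRFI1 and IL6ST by library (rows), drawn as bars against the distance in kb from the outermost annotated start, in the direction of transcription; black lines are summits and the grey bar is the gene. The wide blocks begin about 1 kb inside TGFBR2 and ERRFI1 in all 3 libraries, and IL6ST has only narrow peaks outside its span.

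The libraries were then compared base by base. At ERRFI1, 5.48 of 8.70 kb under any peak lay under peaks of all 3 libraries (63.0%), and at TGFBR2 5.74 of 11.79 kb (48.7%). At IL6ST no base was shared by 3 libraries. In pairs of libraries, the bases shared as a part of all bases under either peak set were 68.8 to 75.6% at ERRFI1 and 59.02 to 68.2% at TGFBR2. Over the whole lists they were 31.3 to 33.2%. At IL6ST the pairs shared 0, 48.4 and 10.3%. Wide peaks overlap more readily than narrow ones, and width was not accounted for in these shares. Joined over the 3 genes, the peaks made 23 regions, of which 10 held all libraries, 3 held 2 and 10 held 1. Regions of at least 2 libraries were thus 56.5% here, beside 36.7% of the 3783 regions of the whole lists (647 with all libraries, 743 with 2 and 2393 with 1). Of the 10 regions with 1 library, 7 came from replicate 2, the longest list. The genes were chosen with their peaks known, so the shares beside the whole lists are a description and no test of agreement.

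The genes differed in the rank of their peaks. At TGFBR2, 7 of 10, 10 of 16 and 6 of 8 peaks were above the median fold of their list. At ERRFI1 the counts were 4 of 5, 5 of 7 and 4 of 6, and at IL6ST 0 of 1, 0 of 1 and 1 of 2. The strongest peak of each gene had a mean percentile of 98.2 ± 0.999 at TGFBR2, 97.6 ± 3.06 at ERRFI1 and 31.02 ± 37.0 at IL6ST (SD, n = 3). The spread at IL6ST was larger than its mean, so its rank is not defined by these libraries. Its strongest peak also changed place, on the start side in replicates 1 and 3 and beyond the 3′ end in replicate 2.

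**Figure D2:**
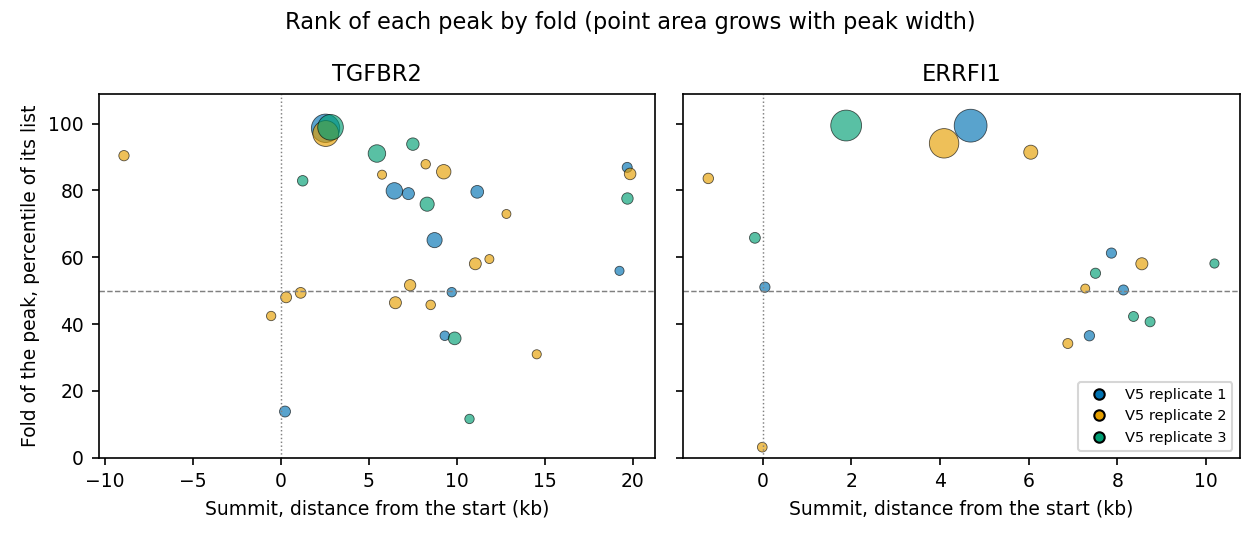
Each point is a peak of TGFBR2 (left) or ERRFI1 (right), placed by its summit's distance from the start (kb) and by the percentile of its fold in its own list, coloured by library, with area growing with width. The wide peaks sit at percentiles 94.1 to 99.4, their summits close together at TGFBR2 and apart at ERRFI1, and the peaks over the starts sit lower.

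Set among all genes, peaks at these 3 genes covered very different parts of the range. A peak in at least 2 libraries was found for 5.09% of protein-coding genes, and a peak in all 3 libraries for 2.54%. All 3 genes are in the second class, which their choice fixed. A region wider than 2000 bp lay over or within 10 kb of 0.235% of genes, TGFBR2 and ERRFI1 among them. An annotated start inside a peak in at least 2 libraries was found for 0.443% of the 15813 genes with a start in the table, again TGFBR2 (2 libraries) and ERRFI1 (3 libraries), but not IL6ST. By the sum of peaks over the libraries, TGFBR2 with 34 ranked 17th of 19987 genes, ERRFI1 with 18 ranked 40th, and IL6ST with 4 ranked 286th, level with 104 others. The 2306 genes with any peak had a median of 1. Ranked by bases covered, ERRFI1 moved up to 21st and TGFBR2 to 14th, and IL6ST moved down to 375th. The genes were chosen with their peaks known, so the wide class, the start class and the ranks are a description too. Gene length was not accounted for in these ranks, and neighbouring genes can share peaks. Mitochondrial genes are among the 19987 and their windows overlap, as at ND1 (15, 11 and 13 peaks) and ND5 (15, 12 and 14).

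**Figure D3:**
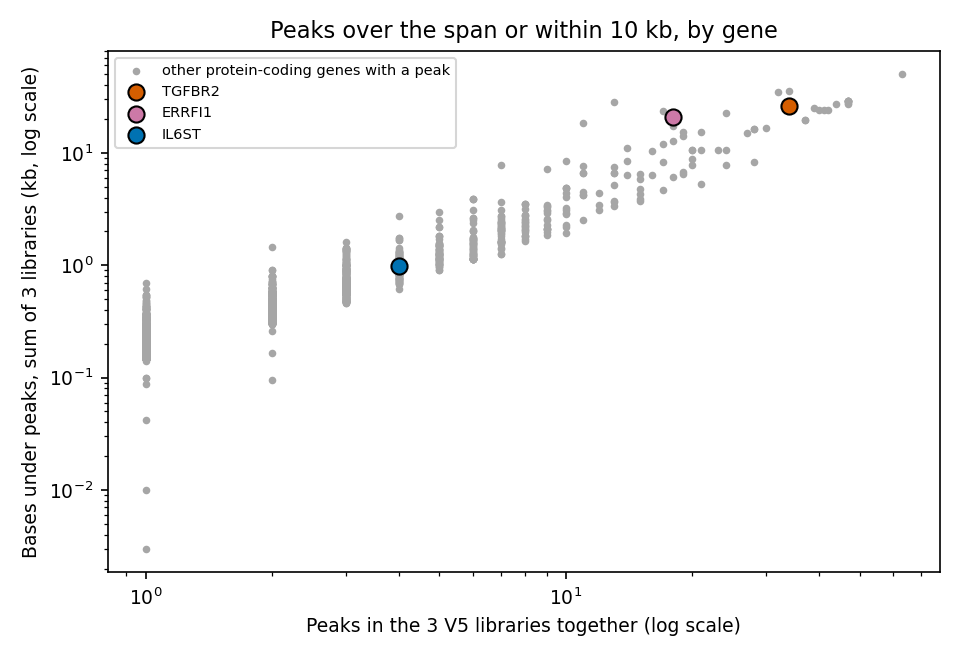
Every protein-coding gene with a peak over its span or within 10 kb, by its number of peaks in the 3 libraries together (x, log scale) and the bases they cover (y, kb, log scale). TGFBR2 (34 peaks) and ERRFI1 (18 peaks) lie near the upper end, ERRFI1 high for its number of peaks, and IL6ST (4 peaks) lies well below them but above the median of 1 peak.

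The lists held 32 regions wider than 2000 bp, all with peaks of 3 libraries, and the blocks of TGFBR2 and ERRFI1 were the 6th and 7th widest of all merged regions. The widest measured 9849 bp and the median of the 32 was 3983 bp. The strongest summits of the libraries lay a median of 755.5 bp apart in these regions. The range of 283 bp at TGFBR2 was below the lower quartile of 377.5 bp. The 2808 bp at ERRFI1 exceeded that of the 31 other regions. With the strand now known, position along the gene could be read for the 22 wide regions centred inside a protein-coding gene with an annotated start. In 21 of these the centre lay in the first 50% of the gene, at a median of 7.38% of its length. TGFBR2 (4.57%) and ERRFI1 (25.5%) are 2 of the 21, and IRF2BP2 (77.9%) was the exception. Narrower regions were not placed this way, so the position cannot be called particular to wide regions.

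The genes with the most similar peak numbers and covered bases were found by Euclidean distance over 6 values, the log2 of 1 plus the peaks and of 1 plus the kb in each library. Nearest to TGFBR2 were EML4, a microtubule-associated protein gene (distance 0.612), TRIM24, a chromatin reader and ubiquitin ligase gene (0.763), and ND1 of the mitochondrial genome (1.09). EML4 had 14, 18 and 10 peaks and TRIM24 14, 14 and 12. ND1 is 1 kb long, so its window is mostly flank and takes in other mitochondrial genes such as ND5. Its 15, 11 and 13 peaks were close to the 15, 12 and 14 of ND5. Nearest to ERRFI1 was MDM2, the ubiquitin ligase gene of p53 (0.489), with 5, 8 and 5 peaks over 5.84, 5.81 and 5.67 kb. UGDH, a UDP-glucose dehydrogenase gene (0.743), and LOC105377015 (0.747) followed, and the latter's window takes in the wide block of TGFBR2. Nearest to IL6ST were CDC42EP4 (0.0730), NKD1, an inhibitor of Wnt signalling (0.0806), and NDRG2 (0.108), each with 1, 1 and 2 peaks. So few peaks make such neighbours common.

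The edge of the 10 kb window cut through no cluster. The outermost peak inside it was 8921 bp before the TGFBR2 start by its summit, in replicate 2 (fold 7.86). The nearest peaks outside lay 50.9 kb from ERRFI1 in replicate 2 (fold 4.26), 216.6 kb from IL6ST in replicate 2 (fold 5.06) and 346.9 kb from TGFBR2 in replicate 2 (fold 7.87). The peak near TGFBR2 was overlapped by peaks of replicates 1 and 3 (folds 7.63 and 6.95). Replicates 1 and 3 had an overlapping peak 94.5 kb from ERRFI1, near the far end of ERRFI1-DT (8120815 to 8121242 and 8120821 to 8121237, folds 5.04 and 5.21).

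The other genes of the same pathways were read from 4 lists of ligands, receptors, signal transducers, inhibitors and targets. Without the 3 genes themselves, 22 of 146 (15.1%) had a peak in at least 2 libraries, beside 5.09% of all protein-coding genes, and 12 had one in all 3. The median span was 37.4 kb in the lists and 24.1 kb in all genes, and the part of length in the difference was not tested. For 14 of the 22 the peaks of at least 2 libraries lay over the gene itself rather than only beside it. None of the 146 had a region wider than 2000 bp in its window. The peaks of different libraries need not overlap for a gene to count here. The best folds of a gene can thus come from different places in its window.

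In the TGF-beta list, 9 of 40 other genes had a peak in at least 2 libraries (22.5%). SMAD7, the inhibitory SMAD that blocks the receptor complex, ranked highest, with 4, 2 and 3 peaks and best folds of 9.19, 7.30 and 7.30. Its best summits lay 611, 688 and 12450 bp past the nearest annotated start, so replicate 3 differed in place. ID2 and ID1, inhibitors of basic helix-loop-helix factors and classic BMP targets, came next. Their best folds were 6.30, 9.08 and 9.17 at ID2 and 6.50, 8.69 and 8.44 at ID1, where 5, 7 and 8 peaks lay in the window. Most of these best peaks lay beside the genes. Their summits were 3458, 5526 and 5526 bp from the start at ID1, a gene of 1.2 kb. At ID2 they were at 1846, -3063 and -2874 bp, where negative values are before the start. Each of the genes had a peak over its span in all 3 libraries. SMAD3, which carries the receptor's signal to the nucleus, had folds of 6.29, 5.63 and 6.60, with summits 9235, 9201 and 9202 bp past its nearest annotated start. SKI, a repressor of SMAD activity (folds 6.35 and 5.20), and the coreceptor gene TGFBR3 (6.38 and 4.79) had peaks in replicates 2 and 3, as did BMP4 and ID3, and SKIL had them in replicates 1 and 3. Among the 10 other receptors of this list TGFBR3 alone was in this class, and TGFBR1, which encodes the partner of TGFBR2, had no peak.

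In the gp130 list 3 of 34 other genes were in the class (8.82%). They were the fibrinogen gene FGG (best folds 5.91, 9.07 and 4.63, of which the second is shared with the window of FGA), the hepcidin gene HAMP (5.04 and 6.37 in replicates 2 and 3) and CISH, a SOCS family inhibitor (4.89, 4.34 and 5.02). The peaks at HAMP and CISH lay beside the genes and not over them. At CISH the best summit lay 10615 bp from the nearest annotated start in replicate 1. In replicates 2 and 3 it lay at -172 and -220 bp (negative values are before the start). At FGG the best summits lay at -5419, 14397 and -5323 bp, and only 1 library had a peak over its 8.5 kb span. OSMR, JAK1 and STAT3 had a peak in replicate 2 only, and IL6R and SOCS3 had none.

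In the EGF receptor list 7 of 45 other genes were in the class (15.6%). The inhibitors among them were SPRY4 (4, 2 and 2 peaks, best folds 6.11, 5.41 and 5.45), LRIG1 (6.36, 6.63 and 3.26) and SPRY1 (5.78 and 4.88 in replicates 2 and 3). Counted with ERRFI1, 4 of 15 inhibitors of this list were in the class, and 7 had no peak. The class held 2 of 4 receptors, 2 of 5 targets, 0 of 7 ligands and 0 of 15 signal transducers of the list. At LRIG1 the best summits lay 18812, 18815 and -67 bp from the nearest annotated start. At SPRY1 they lay at -71 and 2659 bp, so the folds of these 2 genes are not all of one site. The target gene PHLDA1 had 3, 1 and 4 peaks and best folds of 5.62, 7.32 and 5.26. The receptor gene ERBB3 had 1, 1 and 2 peaks, with folds of 4.22, 5.98 and 6.13. IER3 and ERBB2 were also in the class, and EGFR, the receptor that ERRFI1 binds, had no peak. Of 27 other growth factor and cytokine receptors, 3 were in the class: PDGFRB (5.96 and 5.13 in replicates 2 and 3), IL1R1 (5.09, 6.55 and 4.34) and IFNGR1 (7.49 and 3.97 in replicates 2 and 3).

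By role over the 3 pathways, the class held 1 of 25 ligands, 3 of 19 receptors, 1 of 27 signal transducers, 7 of 27 inhibitors and 7 of 21 targets. These are 4, 15.8, 3.70, 25.9 and 33.3% of the genes in each role. Ligands and signal transducers lay close to the 5.09% of all genes. These counts include peaks beside a gene, within 10 kb. Fewer than 2 libraries had a peak over the span itself at the targets ID3, FGG, HAMP and IER3. The same held for the inhibitors SKIL and CISH and the receptor gene ERBB2, so the order of the roles depends on the window. The targets were the shortest, with a median span of 3.8 kb, and the signal transducers had a median of 78.4 kb. The differences between roles were not tested.

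**Figure D4:**
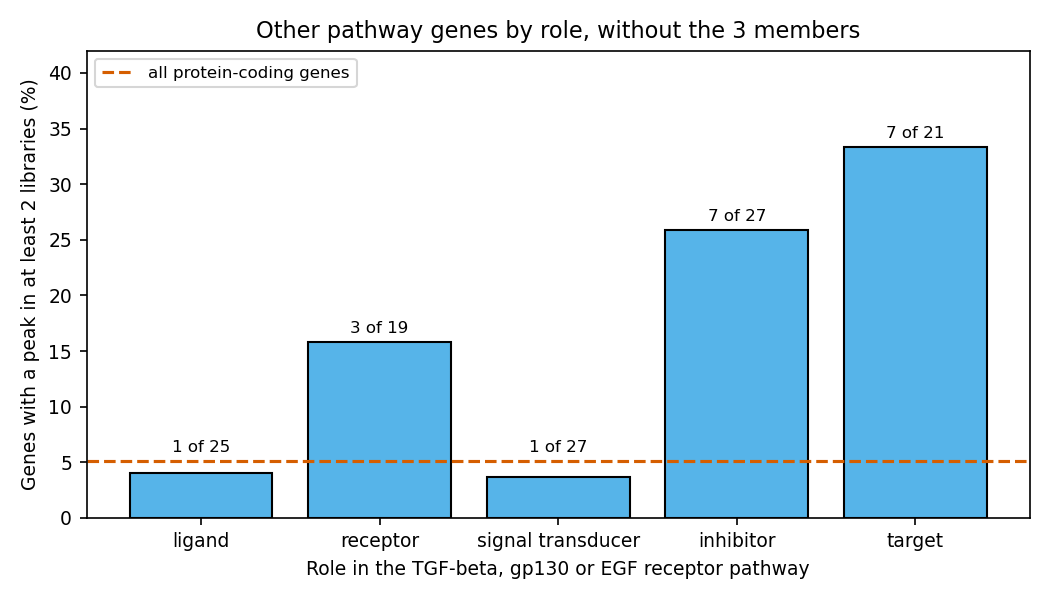
Percent of the genes of each role with a peak in at least 2 V5 libraries, over the span or within 10 kb. The TGF-beta, gp130 and EGF receptor lists are joined, without the 3 described genes. The dashed line is the 5.09% of all protein-coding genes. Inhibitors (7 of 27) and targets (7 of 21) stand highest, and ligands and signal transducers lie near the line.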

How the data were processed

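ChIP-seq peak lists of 3 V5 libraries were used. The 3 control libraries were not analysed here. Per the labels the build was GRCh38. How reads were aligned and peaks called, and against which control, is not given in the sources used. Each list was in narrowPeak layout. The deposited fold is a linear ratio of a peak over background. The authors' -log10 p and -log10 q were kept unchanged. The deposited score repeats 10 times the -log10 q without its decimals, and was left aside. Summits were read as the start plus the authors' offset. Folds were ranked within a list only, as percentiles.

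Spans came from the RefSeq gene table, and strands, starts and start sequences from the RefSeq promoter table, both of GRCh38. The promoter table gives starts for 15813 of the 19987 genes. A peak belonged to a gene if it overlapped the span or 10 kb either side. Regions joined peaks sharing 1 bp or more, and those above 2000 bp were called wide. The members and gene lists were chosen with earlier results of these data known. The text names the 3 genes, list genes with a peak in at least 2 libraries (values for up to 6 a list, by mean best percentile), the 3 most similar genes of each and any other gene under their peaks. TGFBR1, IL6R, SOCS3, OSMR, JAK1, STAT3, EGFR and IRF2BP2 were named after their values were seen. Alternatives were stricter peaks, other windows, the summit inside the window, other joins and widths, and each replicate left out. Counting and merging were tested on simulated data. Python 3.11.15, numpy 2.4.6, pandas 2.3.3 and matplotlib 3.10.9 were used.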

Additional observations from a re-analysis of the deposited data

How the results depend on the processing

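The mean number of peaks per library at TGFBR2 and ERRFI1 stayed within 1.5 times its value under all 8 alternatives run for it, and the count of wide regions under all 12 run for it. IL6ST fell from 1.33 peaks per library to 0.333 with -log10 q of at least 3, to 0.333 with fold of at least 5, where the start-side peak of replicate 3 was left, and to 0 over the span alone. Regions of all 3 libraries at the 3 genes went from 10 to 6 with -log10 q of at least 3, to 5 with fold of at least 5 and to 5 when gaps of up to 500 bp were joined, which fuses neighbouring blocks. Genes with a peak in at least 2 libraries went from 5.09% to 2.75% with fold of at least 5 and 3.25% over the span alone. With each replicate left out in turn they ranged from 3.00% (without replicate 2) to 3.85% (without replicate 1), and were 3.33% without replicate 3. No paired analysis was possible because the controls have no peak list here and no result comes from a test. Read depth is unknown, so an absent peak may be one below the authors' threshold.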

Other observations

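Both TGFBR2 and ERRFI1 had an upstream peak in replicate 2 alone that stood higher by -log10 q than by fold. At TGFBR2 it lay at 30597249 to 30597561 on chromosome 3, over no annotated gene, with a fold of 7.86 (percentile 90.4) and a -log10 q of 15.0 (percentile 92.8). At ERRFI1 it lay at 8027401 to 8027733 on chromosome 1, inside ERRFI1-DT, with a fold of 6.96 (percentile 83.6) and a -log10 q of 13.6 (percentile 91.3). Neither of these peaks had an overlapping peak in replicate 1 or replicate 3. Another upstream peak of replicate 2 alone at TGFBR2, at 30605700 to 30605903, went the other way. It stood at percentile 42.4 by fold and 30.6 by -log10 q. Nor was the trait particular to upstream peaks. The start peak of TGFBR2 in replicate 2 stood at percentile 48.03 by fold and 59.5 by -log10 q. By comparison, the ERRFI1 start peak, present in all 3 libraries, had a -log10 q of 4.52, 1.32 and 6.62.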
